A study of Mus musculus with 12 samples.

Results

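Pancreatic acinar transcripts were examined in liver RNA sequencing of female mice, through 10 genes named Cpb1, Pnlip, Ctrb1, Cpa1, Clps, Cel, Reg1, Try5, Cela1 and Cela2a, out of 25069 genes in the table. They were taken by symbol. The list was drawn up with their levels in these same libraries known, in particular that most of them were lower in the descendants of Khdc3-null mice than in WT, so their own differences between groups are described without a test. There were 12 libraries, 1 per mouse and 4 per group, and every mouse was itself wild type for Khdc3. WT mice, numbered 116, 117, 118 and 120, had only wild-type ancestors. WTMM mice, numbered 6 to 9, had grandmothers lacking Khdc3 on both the mother's and the father's side. WTPP mice, numbered 2, 3, 6 and 7, had grandfathers lacking Khdc3 on both sides. Khdc3 encodes an oocyte and embryo protein, and the comparison of the groups asks what the ancestral genotype leaves in the liver of wild-type descendants. No age, diet or dissection detail for these mice is in the labels used here.

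Acinar cells make up most of the exocrine pancreas and release digestive enzymes, largely as inactive precursors, into ducts that lead to the small intestine. The genes of these enzymes are switched on by a transcription factor complex built around PTF1A, and most of them are among the most abundant transcripts of the pancreas and very low in liver cells. In bulk RNA a level can change through the number of cells of a type or through the RNA in each cell, and these cannot be told apart here.

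Between 25070718 and 35843972 reads fell in genes in each library. The label gives liver as the tissue and hepatocyte as the cell type, and the hepatocyte markers were high in every library: the 9 listed hepatocyte genes that the table holds, Alb, Apoa1 and Ttr among them, summed to between 2832687 and 4501812 normalized counts per library. Normalized counts are the reads of a gene over a size factor of the library. The WT libraries carry the library numbers 1 to 4 and the descendants' libraries 20 to 27, so a difference of preparation that follows those numbers cannot be told apart from the difference between WT and descendants.

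The stretches before the start of transcription are shown for 3 genes that span both patterns described further on: Ctrb1 and Cpb1 were nearly confined to the WT libraries, and Cela1 was high in all 12. Each is the 250 bases before the start in RefSeq, build GRCm38.p6, read 5′ to 3′ on the strand of the gene. Capitals mark 2 searched elements. The first is CANNTG followed 4 or 5 bases later by TTTCCC, searched on both strands, a pair of boxes of the kind bound by the PTF1 complex. The second is ATAAA starting 40 to 20 bases before the start, on the gene's strand, a form of the TATA box. The spacing was set with the sequences in view. Ctrb1 lies on the minus strand, and its stretch is chr8:111691011-111691260. Cela1 is also on the minus strand, with chr15:100687921-100688170. Cpb1, on the minus strand too, has chr3:20275734-20275983 and holds neither element in these windows.
Ctrb1: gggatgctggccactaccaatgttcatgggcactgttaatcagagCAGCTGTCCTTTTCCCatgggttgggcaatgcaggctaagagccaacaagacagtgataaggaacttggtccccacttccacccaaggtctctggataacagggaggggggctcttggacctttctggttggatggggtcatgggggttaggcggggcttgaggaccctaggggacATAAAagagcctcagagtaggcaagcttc
Cela1: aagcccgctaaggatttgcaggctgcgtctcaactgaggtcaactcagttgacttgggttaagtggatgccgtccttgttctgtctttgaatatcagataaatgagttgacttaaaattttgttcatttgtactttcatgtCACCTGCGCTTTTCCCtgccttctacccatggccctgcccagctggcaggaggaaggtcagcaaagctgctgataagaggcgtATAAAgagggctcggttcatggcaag
Cpb1: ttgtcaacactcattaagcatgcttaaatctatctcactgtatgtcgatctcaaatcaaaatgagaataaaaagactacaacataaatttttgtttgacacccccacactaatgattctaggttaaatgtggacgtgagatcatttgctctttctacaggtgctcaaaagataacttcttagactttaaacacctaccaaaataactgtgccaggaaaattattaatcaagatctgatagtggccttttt

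In the Ctrb1 stretch the pair of boxes starts 205 bases before the start, and in Cela1 it starts 109 bases before it, with 4 bases between the boxes in both. RefSeq promoters matched 8 of the 10 genes by symbol, all but Clps and Try5, and the pair was found in 2 of these 8. Of all 32851 promoters in the table, 56 held it, which is 0.170%. The ATAAA element was found in 5 of the 8, in Pnlip, Ctrb1, Reg1, Cela1 and Cela2a, against 4.25% of all promoters. These are matches of letters and not measured binding sites. The pair was present both in a gene nearly confined to WT and in a gene high in all libraries.

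The 10 genes fell into 2 patterns. For Cpb1, Pnlip, Ctrb1, Cpa1, Clps, Cel, Reg1 and Try5, every WT library had reads, and the 8 descendants' libraries together had 13 reads against 3600 in the 4 WT libraries. Cela1 was at a similar order of level in all 12 libraries, and Cela2a had reads in all 12, with its highest levels in WT. In 8 of the 10 genes the lowest WT library lay above the highest WTMM library, and in the same number it lay above the highest WTPP library. Among all tested genes that was so for 9.55% against WTMM and 7.81% against WTPP. These shares describe the table only, since the genes were picked on this difference. All 10 had a mean of at least 10 normalized counts over the 12 libraries and so passed the filter used for testing, 8 of them through the WT libraries alone.

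**Figure D1:**
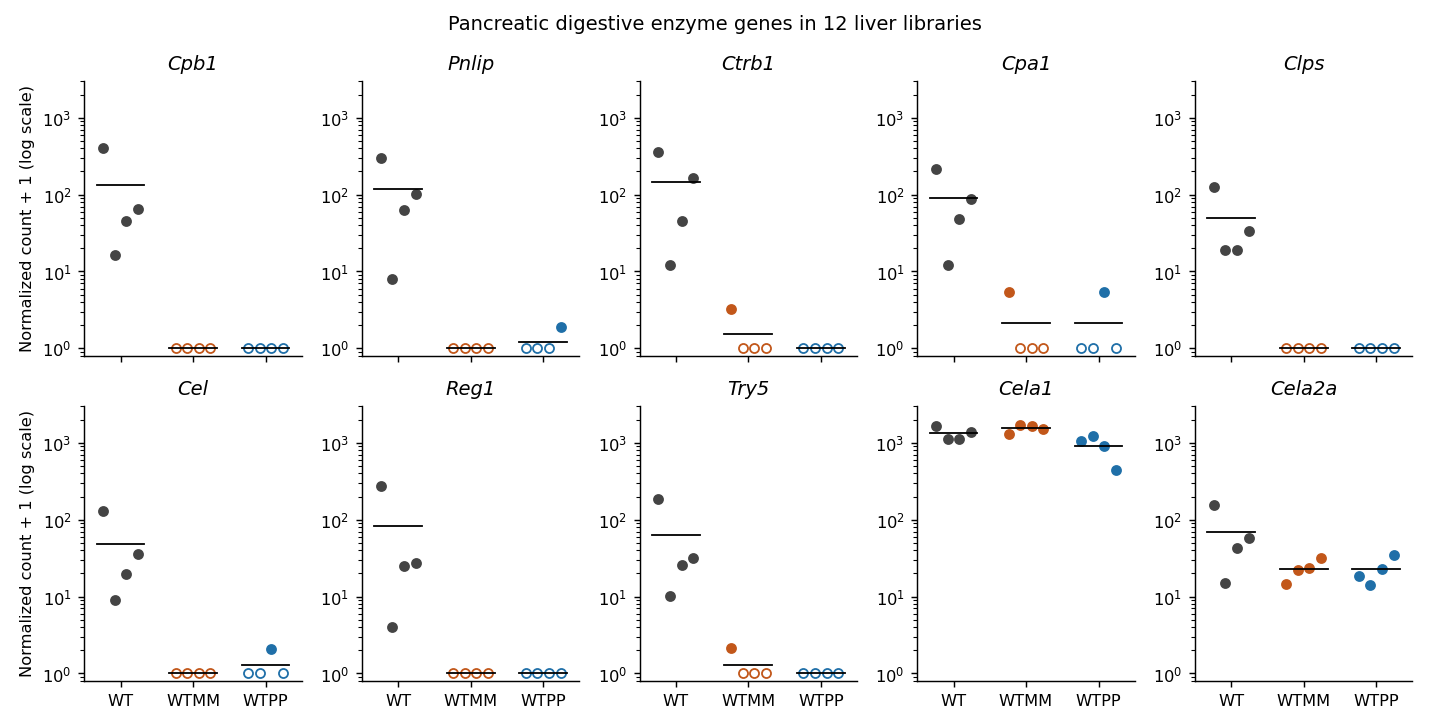
Normalized counts plus 1 on a log axis for each of the 10 genes in 4 WT, 4 WTMM and 4 WTPP libraries; each point is a library, an open point is a library with 0 reads, and a line is the group mean. In 8 genes every WT point lies above every descendant point, while for Cela1 and Cela2a the WT points overlap with those of each descendant group.

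Among the proteases, the carboxypeptidases cut amino acids from the end of peptides. Carboxypeptidase B1, encoded by Cpb1 (chromosome 3, 20248264 to 20275733, GRCm38), removes basic residues. Its reads numbered 523 in WT 116, 15 in WT 117, 43 in WT 118 and 81 in WT 120, and 0 in all 8 descendants. WT 116 was far above the other WT libraries, and no descendant overlapped with WT. The WT mean was 133 ± 184 normalized counts (SD, n = 4). With the floor of 3 reads that a group at 0 allows, the RPM in WT, the reads per 1000000 reads in genes, was at least 193-fold higher than in WTMM and at least 201-fold higher than in WTPP. Without WT 116 these bounds were 56.2 and 58.5.

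Carboxypeptidase A1, encoded by Cpa1 (chromosome 6, 30639218 to 30645363), removes aliphatic and aromatic residues. It had 276, 11, 45 and 110 reads in WT 116, 117, 118 and 120. It was the member with the most reads in descendants after Cela1 and Cela2a, with 4 in WTMM 6, 4 in WTPP 6 and 0 in the remaining 6. The lowest WT library, at 11.1 normalized counts, still lay above both, at 4.48 and 4.43. The WT mean was 89.7 ± 88.9 normalized counts, against 1.12 ± 2.24 in WTMM and 1.11 ± 2.22 in WTPP (SD, n = 4). The ratio of RPM was 96.9 to WTMM, with an exact interval from 37.6 to 357, and 101 to WTPP, from 39.1 to 372. Without WT 116 the ratios were 50.3 and 52.4.

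The serine proteases cut within proteins. Chymotrypsinogen B1, from Ctrb1 (chromosome 8, 111686519 to 111691010), cuts after large hydrophobic residues. It had 453, 11, 43 and 212 reads in the 4 WT libraries in the order of their numbers, 2 in WTMM 6 and 0 in the other 7 descendants. Its WT mean of 144 ± 154 normalized counts (SD, n = 4) was 163 per kilobase of exon, the highest of the 8 genes on that scale, and its level in WT 120 was closer to WT 116 than for Cpb1. The RPM in WT was 315 times that in WTMM, with an interval from 86.9 to 2607, and at least 219-fold higher than in WTPP. Without WT 116 these were 161 and 112.

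Try5 (chromosome 6, 41311233 to 41316841) encodes a trypsin, which cuts after lysine and arginine. It had 239, 9, 24 and 40 reads in WT 116, 117, 118 and 120, 1 read in WTMM 6 and 0 elsewhere. The trypsin genes are a family of near copies, so the assignment of these reads to Try5 is uncertain. The WT mean was 62.9 ± 82.7 normalized counts (SD, n = 4), at least 95.0-fold higher than in WTPP in RPM. To WTMM the ratio was 274 with an interval from 48.7 to 10838, which rests on a single read. Without WT 116 the ratio to WTMM was 88.5 and the bound against WTPP was 30.7.

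Among the genes for fat digestion, Pnlip (chromosome 19, 58652498 to 58681788) encodes pancreatic lipase, which splits dietary triglycerides. It had 382, 7, 59 and 131 reads in WT 116, 117, 118 and 120 and 1 read in WTPP 7. Clps (chromosome 17, 28558149 to 28560766) encodes colipase, the cofactor that anchors the lipase to fat droplets coated with bile salts. It had 159, 18, 17 and 42 reads in the same WT libraries and 0 in all descendants. Clps was the 1 member of 10 that departed from the order WT 116, WT 120, WT 118, WT 117, with WT 117 at 18.2 and WT 118 at 17.7 normalized counts. The WT means were 117 ± 126 normalized counts for Pnlip and 48.1 ± 50.9 for Clps (SD, n = 4). For Clps the RPM in WT was at least 69.0-fold higher than in WTMM and at least 71.8-fold higher than in WTPP, and without WT 116 at least 31.1-fold and 32.4-fold. For Pnlip it was at least 169-fold higher than in WTMM, and the ratio to WTPP was 529, with an interval from 94.5 to 20918. Without WT 116 these were 79.6 and 249.

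Cel (chromosome 2, 28555795 to 28563403) encodes the bile salt-dependent lipase, which also splits cholesterol esters. Its reads were 165, 8, 18 and 45 in WT 116, 117, 118 and 120, with 1 in WTPP 6. The gene shares its position with Gm13381 on the other strand, and whether counting used strand is not given in the sources used here, so the assignment is uncertain. Its WT mean of 47.6 ± 55.0 normalized counts (SD, n = 4) was 22.6 per kilobase, the lowest of the 8 on that scale. The ratio to WTPP in RPM was 215, with an interval from 38.3 to 8547, and WT was at least 69.0-fold higher than WTMM. Without WT 116 these were 89.7 and 28.7.

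Reg1 (chromosome 6, 78422711 to 78428667) is not an enzyme gene: it encodes a secreted lectin-like protein of acinar cells, known to rise in injured pancreas. It had 354 reads in WT 116, 3 in WT 117, 23 in WT 118, 34 in WT 120 and 0 in every descendant. This was the member most concentrated in a single library, with 85.5% of its WT reads in WT 116, where its level was 90.9 times that in WT 117. The WT mean was 82.3 ± 129 normalized counts and 17.9 without WT 116. The bound against WTMM, at least 121-fold in RPM, fell to 24.2 without that library, and against WTPP it went from 126 to 25.3.

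The elastase genes kept reads in every descendant, unlike the other 8 members. Cela1 (chromosome 15, 100674421 to 100687921) encodes chymotrypsin-like elastase 1. It had 2155, 1108, 1084 and 1773 reads in WT 116, 117, 118 and 120. The WTMM libraries 6, 7, 8 and 9 had 1162, 1949, 1446 and 1526, and the WTPP libraries 2, 3, 6 and 7 had 1013, 1398, 826 and 488. Every library was high, and WT overlapped with each descendant group, with WTPP 7 the lowest of the 12. The lowest WTMM library, at 1301 normalized counts, lay above the highest WTPP library, at 1237. The means were 1328 ± 263 normalized counts for WT, 1541 ± 182 for WTMM and 911 ± 337 for WTPP (SD, n = 4 each), so that WTMM and WT, neighbours in that order, differed by less than the SD of WT and more than that of WTMM. At 576 normalized counts per kilobase in WT, 668 in WTMM and 395 in WTPP, Cela1 stood above each of the other 9 genes on that scale. WT and WTPP differed by more than the SD of either group, and their libraries overlapped. It was high in descendants' libraries in which 5 to 8 of the 8 WT-confined genes had no read, so its level did not follow the label of acinar transcripts.

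Cela2a (chromosome 4, 141814962 to 141826160) encodes chymotrypsin-like elastase 2A. It had 201, 14, 40 and 73 reads in WT 116, 117, 118 and 120, then 12, 24, 20 and 31 in WTMM 6 to 9 and 17, 15, 20 and 37 in WTPP 2, 3, 6 and 7. WT 117, at 14.1 normalized counts, lay within the range of the descendants, from 13.3 to 33.8, and the other WT libraries lay above it. The means were 67.3 ± 62.0 in WT, 21.96 ± 7.02 in WTMM and 21.7 ± 8.85 in WTPP (normalized counts, SD, n = 4), and the RPM in WT was 3.31 times that in WTMM and 3.37 times that in WTPP, or 1.77 and 1.80 times without WT 116. In WT 116 its level of 157 normalized counts was above those of Clps and Cel. The annotated gene overlaps Ctrc on its own strand and Casp9 on the other. Casp9 was between 543 and 954 normalized counts in every library and Ctrc between 0 and 38.9. How many of the reads listed for Cela2a come from those neighbours was not tested.

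Summed over the 8 genes other than Cela1 and Cela2a, a grouping made after their values were seen, WT 116 had 71.2 RPM, with an exact interval at 95% from 68.4 to 74.0. WT 120 had 19.4 RPM, from 18.0 to 20.9. WT 118 had 9.70, from 8.59 to 10.9, and WT 117 had 2.75, from 2.19 to 3.41. The intervals of the 4 WT libraries were separate from each other, and they cover counting error only. In WTMM 6 the sum was 0.279 RPM and in WTPP 6 it was 0.191, with upper limits of 0.575 and 0.446, and in WTPP 7 it was 0.032 from 1 read. The other 5 descendants had 0 reads of the 8 genes, which at 3 reads allows up to between 0.088 and 0.117 RPM.

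**Figure D2:**
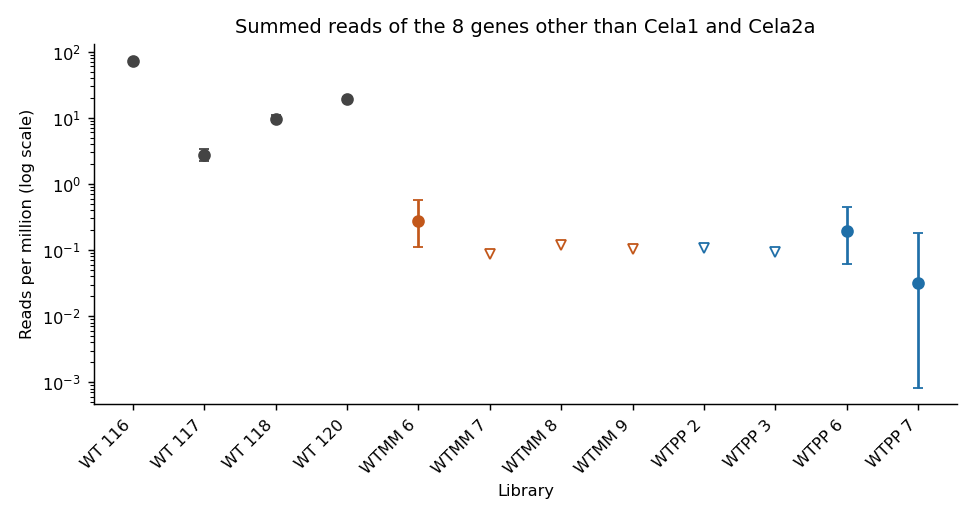
Summed RPM, on a log axis, of the 8 genes other than Cela1 and Cela2a in each library; bars are exact intervals at 95% for counting error, and open triangles mark the limit that 0 reads allows, set at 3 reads. The WT libraries lie between 2.75 and 71.2 and the descendants at or under 0.279.

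WT 116 held 70.9% of all WT reads of the 8 genes. By group, the summed mean was 724 ± 862 normalized counts for WT, 1.96 ± 3.92 for WTMM and 1.61 ± 2.65 for WTPP (SD, n = 4), so the SD in WT was larger than its mean. Without WT 116 the WT mean was 303 ± 230 (SD, n = 3), and the ratios of the summed means went from 369 to 155 against WTMM and from 449 to 188 against WTPP. With Cela1 and Cela2a included the picture was another: the sums were 2119 ± 1179 normalized counts for WT, 1565 ± 182 for WTMM and 934 ± 328 for WTPP. The ratio of WT to WTMM was then 1.35, and it turned to 0.99 without WT 116, while the ratio to WTPP was 2.27.

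The make-up of the 8 genes' reads differed between the WT libraries by more than counting error for some genes. Ctrb1 made up 30.5% of them in WT 120, with an exact interval from 27.1 to 34.1, against 17.8% in WT 116, from 16.3 to 19.3. Reg1 made up 13.9% in WT 116, from 12.6 to 15.3, and 4.89% in WT 120, from 3.41 to 6.77. Cpb1 was at 20.5% in WT 116 and 11.7% in WT 120, also with separate intervals. Clps made up 21.95% of the 82 reads in WT 117, from 13.6 to 32.5, and between 6.04% and 6.25% in the other 3. Cel varied least among WT 116, 118 and 120, at 6.47%, 6.62% and 6.47%. These intervals hold counting error only, and the spread that separate samples of 1 liver would show was not measured.

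**Figure D3:**
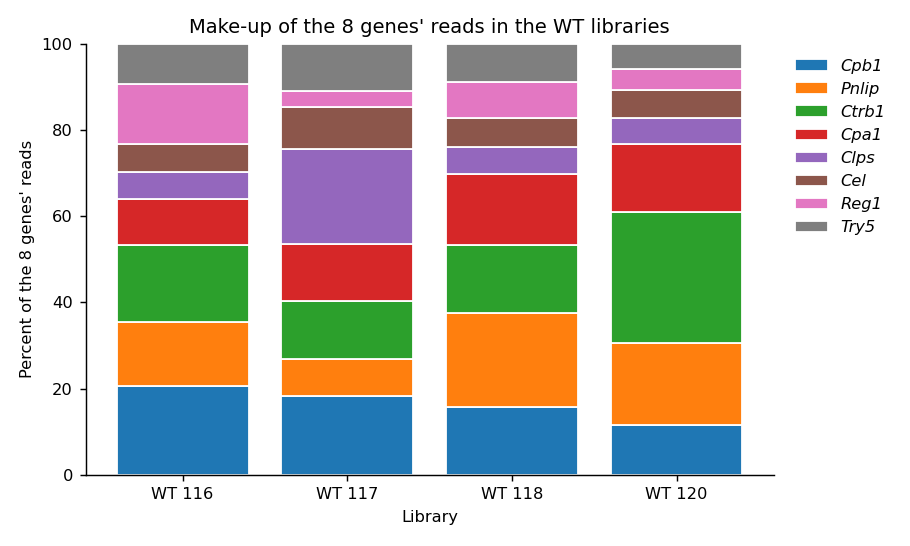
Percent of the summed reads of 8 genes that each gene contributed in WT 116, 117, 118 and 120, whose sums were 2551, 82, 272 and 695 reads. The Ctrb1 segment is largest in WT 120 and the Clps segment largest in WT 117.

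Over the 12 libraries, the 8 genes had a Pearson r between 0.954 and 0.994 with the mean of the other 9 genes, each as log2(normalized count + 1). Cela2a had 0.780 and Cela1 had 0.244. These values are set largely by the step between WT and descendants and are given as a description. Of 17505 other genes with a mean of at least 2 normalized counts, the 10 most like the mean of the members were 2210010C04Rik (r = 0.993), Pnliprp1 (0.991), Cela3b (0.988), Gp2 (0.985), Adamdec1 (0.983), Amy2a3 (0.983), Ctrc (0.980), Zg16 (0.980), Amy2b (0.979) and Fcer1g (0.977). Of these, 7 stood on a separate list of acinar genes. Adamdec1, a secreted metalloprotease, was between 139 and 384 normalized counts in WT and still between 75.3 and 100.3 in the descendants. Fcer1g, a signalling chain of Fc receptors in myeloid cells, was between 391 and 705 in WT and between 200.01 and 272 in the descendants. Of the 30 most like genes, 9 stood on the acinar list. Among the others, named after their values were seen, were genes known from macrophages and Kupffer cells. Clec4f was between 5388 and 11049 normalized counts in WT and between 3633 and 4768 in the descendants. Adgre1 was between 738 and 1613 in WT and between 434 and 605 in the descendants, and C1qa between 2249 and 4717 against 1420 to 1993. The part of such cells in the differences was not tested.

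That separate list named 31 further acinar genes, of which 28 were in the table, while Prss1, Prss3 and Spink3 were not analysed here. At least 10 normalized counts on average were reached by 7. In limma's test with Benjamini-Hochberg adjustment over all 14473 tested genes, 4 of the 7 were lower in WTMM than in WT and 4 lower in WTPP, and none was higher. Of all tested genes, 5.94% were lower in WTMM and 5.53% lower in WTPP. Both comparisons use the same WT libraries. Of the 7 genes, 5 stayed under a mean of 10 in the descendants and so passed the filter through WT, which makes the counts a description of the list and not separate support. The median log2 difference of the 7 was -3.69 in WTMM and -3.96 in WTPP, or -3.69 and -4.75 with genes at 0 put at their bound, against 0.00 and -0.01 over all tested genes. Without WT 116, with 3 genes tested, the medians were -0.23 and -0.85.

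The 4 called genes were Pnliprp1, a lipase-related protein, Prss2, a trypsinogen, Amy2b, a pancreatic amylase that digests starch, and Rnase1, the pancreatic ribonuclease. All 4 stayed under a mean of 10 in the descendants and so passed the filter through WT. Without WT 116 they did not reach it. Their p-values describe the list and are not separate support. Pnliprp1 had 134, 6, 18 and 49 reads in WT 116, 117, 118 and 120 and 1 read in all descendants. Its log2 difference was -4.56 ± 0.72 (SE) in WTMM, with a limma adjusted p of 0.00271. In WTPP, where it had 0 reads, WT was at least 63.0-fold higher in RPM, with an adjusted p of 0.00225. Prss2 had 249, 10, 23 and 72 reads in the WT libraries, 7 in WTMM and 3 in WTPP, and its log2 differences were -4.28 ± 0.85 and -4.75 ± 0.85, with limma adjusted p of 0.00847 and 0.00544. Amy2b had 153, 2, 8 and 21 WT reads, with adjusted p of 0.0217 in WTMM and 0.0160 in WTPP by limma. Rnase1 had 147, 1, 15 and 22, with 0.0242 and 0.0180. WT 116 was again the highest and WT 117 the lowest for all 4, and Prss2 and the amylase genes belong to families of near copies.

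The other 3 tested genes were Ctrl, Tmed6 and Erp27, and none of them passed the test. Ctrl, a chymotrypsin-like protease, averaged 41.6 ± 46.9 normalized counts for WT, 5.35 ± 2.39 for WTMM and 9.91 ± 6.25 for WTPP. Tmed6, a vesicle transport protein, averaged 24.5 ± 6.57, 33.1 ± 11.2 and 16.5 ± 16.2, and Erp27, a chaperone of the endoplasmic reticulum, 48.0 ± 10.96, 48.4 ± 33.1 and 35.9 ± 7.13 (SD, n = 4). All 3 had reads in WT and in both descendant groups. Between WTMM and WTPP none of the 7 passed limma's adjusted threshold, where 4.17% of all tested genes did in either direction. At an unadjusted p under 0.05 the count was 1.

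Among the genes of the list below that filter, Cela3b, an elastase-like protease, had 86, 4, 13 and 27 reads in WT 116, 117, 118 and 120 and 2 reads in all descendants. Gp2, a zymogen granule membrane protein, had 37, 3, 3 and 12 and none in descendants. Zg16, a granule lectin, had 80, 4, 6 and 28 and then 1. Sycn (syncollin) had 88 WT reads, Ctrc (chymotrypsin C) 78, Klk1 (a kallikrein) 73 and Pnliprp2 33, with 3, 1, 13 and 1 in descendants. Amy2a3 had 89 WT reads, Spink1, a trypsin inhibitor, 25, Cuzd1 18, Pla2g1b 15, Serpini2 15, Try4 13, Amy2a4 12 and Amy2a1 10, all with 0 in descendants. Of the 28 genes, WT 116 had reads for 26 and WT 117 for 17, while the descendants had reads for 4 to 10.

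Leaving out WT 116 took all calls from the list, with 3 genes then reaching the filter. With a mean of at least 1 in place of 10, an alternative that was planned, 13 of 18 tested genes were lower in each descendant group by limma's adjusted p, against 4.36% of all tested genes in WTMM and 3.81% in WTPP. With both changes, a combination chosen after the data were seen, 10 of 15 were lower in WTMM and 11 of 15 in WTPP, against 2.2% and 1.85% of all tested genes. Pnliprp1 was then at limma adjusted p of 0.00331 and 0.00255. Most of the called genes stayed under a mean of 1 in the descendants and so passed this filter through WT. Cela3b, for example, averaged 0.28 in WTMM and 0.23 in WTPP. These counts too describe the list and are not separate support.

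The regulators of acinar genes were at few or no reads where they are specific to such cells. Ptf1a, which encodes the defining factor of the acinar programme, had 0 reads in all 12 libraries. Rbpjl, its partner in the PTF1 complex, had 4 reads in WT 116, 1 in WT 120 and 1 in WTMM 9. Bhlha15 encodes a factor of secretory cells such as acinar and plasma cells. It had 66, 5, 42 and 14 reads in WT 116, 117, 118 and 120, and 24 in each descendant group. Bhlha15 had WT 118 above WT 120, the reverse of all 10 members. Its means were 27.8 ± 23.2 normalized counts in WT, 6.61 ± 6.08 among WTMM and 5.94 ± 6.09 among WTPP (SD, n = 4), and it did not pass limma's adjusted threshold, with adjusted p of 0.175 and 0.1595. Cckar, a receptor for the gut hormone cholecystokinin, had 5 reads in WT and 0 in descendants. Xbp1, Nr5a2 and Gata4, which are also active in liver, were high in all libraries. Xbp1, Nr5a2, Gata4 and Bhlha15 were the 4 with a mean of at least 10, and of these Gata4 was lower in WTMM, with a log2 difference of -0.29 ± 0.08 (SE) and a limma adjusted p of 0.0449. Reg2, a relative of Reg1, had 34, 0, 2 and 1 reads in the WT libraries and none in descendants.

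Markers of other tissues were read beside the 10 members. These are called enzyme genes from here on, although Reg1 is not one and Clps encodes a cofactor. Of 13 islet genes, the table held Ins2, with 1 read in WT 120, and Slc30a8, with 22 reads over the 12 libraries. Ins2 was the only hormone gene of the endocrine pancreas among them. Ins1, Gcg, Sst and the rest of the list were not in the table and could not be read. The 9 duct genes summed to between 638 and 838 normalized counts for WT, 467 and 694 for WTMM and 691 and 1078 for WTPP, ranges that do not set WT apart. Single duct genes did differ, in both directions. Sox9 was lower in WTMM than in WT, with a log2 difference of -1.02 ± 0.28 (SE) and a limma adjusted p of 0.0344. It was also lower in WTMM than in WTPP, at 0.0376. Spp1 was higher in WTPP than in WT, at 0.88 ± 0.21 and 0.0191. Bile ducts of the liver express the duct genes too. The 8 lymphocyte genes were also higher in WT. Their sum was between 427 and 941 in WT, 189 and 271 in WTMM and 266 and 371 in WTPP. Within WT, WT 116 was highest and WT 117 lowest, as for most enzyme genes. WT 118, at 617, lay above WT 120, at 530, the reverse of the enzyme genes. Of those 8, 6 were lower in WTMM and 3 in WTPP by limma's adjusted p, among them Ighm, Cd4 and Cd79b in both, against 5.94% and 5.53% of all tested genes. Ighm, the heavy chain of IgM, averaged 264 ± 81.6 in WT, 87.8 ± 14.9 in WTMM and 132 ± 29.1 in WTPP (normalized counts, SD, n = 4).

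The 6 erythroid genes, globins included, summed to between 9871 and 24292 normalized counts for WT, 3147 and 8329 for WTMM and 815 and 17099 for WTPP, and Alas2, an enzyme of haem synthesis in red cells, was the 1 gene of them called lower in WTMM. The 5 mesothelium genes summed to between 133 and 506 in WT, 74.9 and 177 in WTMM and 180 and 344 in WTPP, with none called. WT 117, lowest for most enzyme genes, had the highest mesothelium sum of the 12. The 7 adipocyte genes summed to between 100.2 and 164 in WT, 137 and 214 in WTMM and 149 and 263 in WTPP. WTPP 6 held 5 of the 6 WTPP reads of the 8 genes other than Cela1 and Cela2a. It had 23 reads of Adipoq, 17 of Cfd, 8 of Plin1 and 3 of Retn, where each other descendant had at most 7, 0, 0 and 0. Cidec, a lipid droplet protein, was higher in WTMM than in WT, with a limma adjusted p of 0.0478. Of 16 intestine and stomach genes 6 were in the table, and Fabp2, which the liver may also express, accounted for nearly all of their sum. It was higher in WTMM than in WT, with a log2 difference of 1.013 ± 0.174 (SE) and a limma adjusted p of 0.00433. Atp4a, from the same list, had its lowest WT library, at 43.7 normalized counts, above every descendant. The highest WTMM library reached 29.6 and the highest WTPP library 40.7. Its log2 differences from WT were -1.55 ± 0.50 for WTMM and -1.28 ± 0.50 for WTPP (SE). The limma adjusted p, at 0.0618 and 0.116, did not pass the threshold. The part of pancreas, lymphoid or other tissue in the enzyme reads was not tested.

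**Figure D4:**
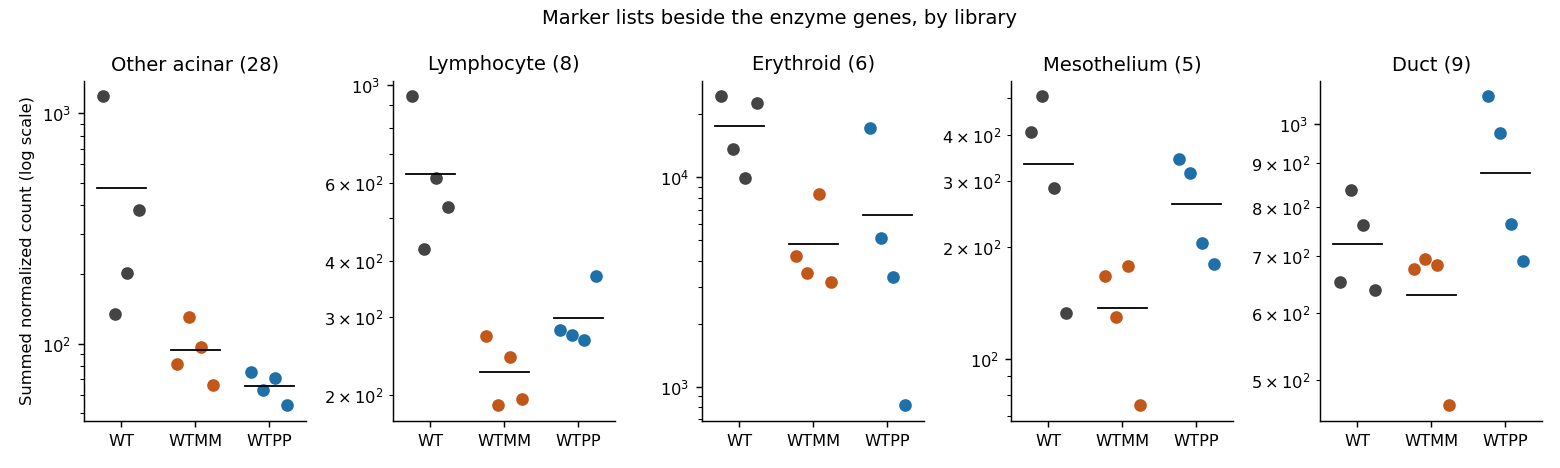
Summed normalized counts, each panel on its own log axis, of marker lists in the 12 libraries, with the number of genes in the table in brackets; each point is a library and a line is the group mean. The acinar and lymphocyte sums lie higher in each WT library than in every descendant, while the erythroid, mesothelium and duct sums overlap between WT and at least 1 descendant group.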

How the data were processed

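RNA of the liver of 12 female mice was sequenced, 1 library per mouse and 4 per group, from directional libraries per the labels' protocols. The submitters' processing notes name DESeq2, HISAT2, cutadapt and GRCm38. Tool versions, the gene counter and its strand setting are not given in the sources. The authors deposited log2 values, log2(normalized count + 0.1), for 25069 genes. The columns of the 4 WT libraries, headed by mouse numbers only, hold the same log2 quantity, and no value column was left unused. After 0.1 was taken off the antilog, 100% of values in each library were whole multiples of 1 step within 0.001 of a read, so whole reads and totals were recovered, from 25070718 to 35843972 per library.

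The 10 genes, the marker lists and the tests were chosen with earlier results of these data known. All 10 genes are named, with the acinar genes of at least 10 reads in all except 1 that is not reported here, up to 4 genes of highest mean in the other lists, and the 10 genes most like the mean of the members. Ptf1a, Rbpjl, Cckar, Plin1, Retn, Casp9 and the macrophage genes were named outside this rule, after their values were seen. Genes with a mean of at least 10 normalized counts, 14473 in all, were tested on log2(normalized count + 1) with limma 3.58.1 under R 4.3.3, in 1 fit of the 3 group means with a mean-variance trend, adjusted by Benjamini-Hochberg per contrast at 0.05. The method recovered known changes on simulated data. These were planted alike in every WTMM library, in genes of higher mean than the 4 called acinar genes. The simulation does not cover low genes with most of their reads in WT 116. Log2 differences of low genes are understated by the pseudocount. RPM is reads per 1000000 reads in genes. RPM ratios use a floor of 3 reads over a group at 0, and exact Clopper-Pearson intervals at 95% where a group had 1 to 4 reads. Both cover counting error only. Coordinates are from GENCODE M21 on GRCm38, which matched 25016 genes. The alternatives were other pseudocounts, mean filters and scaling, no trend, voom on recovered reads, a replicate block and leaving out each library. Nothing in the labels gives a batch. P-values set the difference of group means against the spread between mice within groups. They cannot separate ancestry from the library numbers, 1 to 4 in WT and 20 to 27 in the descendants.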

Additional observations from a re-analysis of the deposited data

Results flagged for a closer look

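Within the 29 groups of 4 libraries examined that were not all at 0, 12 had 1 library far from the other 3 by the ratio of its gap to the group's range. The cutoff is set for about 1 of 20 groups of continuous, normal values, and the genes share libraries. A group with reads in only 1 library has a ratio of 1 by construction. The 12 can therefore not be set against that rate. WT 116 stood above the other WT libraries for Cpb1 at 407 normalized counts, where the next was 63.2, for Clps at 124 against 32.8, for Reg1 at 276 against 26.5 and for Try5 at 186 against 31.2.

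The remaining cases were descendants with a few reads where the others had 0 or 1. WTMM 6 stood apart for Ctrb1 at 2.24 normalized counts, Cpa1 at 4.48 and Try5 at 1.12, and for the sum of the 8 genes without Cela1 and Cela2a at 7.84. WTPP 6 stood apart for Cpa1 at 4.43, Cel at 1.11 and the same sum at 5.54, and WTPP 7 for Pnlip at 0.914. At 1 to 7 reads, these are near the limit of what the depth can show.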

How the results depend on the processing

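The calls on the separate acinar list, 4 lower in each descendant group and 0 between WTMM and WTPP, depended on the filter and on WT 116. With a mean of at least 1, and with no filter beyond 1 read, 13 genes were called in each contrast with WT. With a mean of at least 1 and WT 116 left out, they were 10 in WTMM and 11 in WTPP. Most of the genes called at that filter passed it through WT. Leaving out each library gave 0 to 5 calls in WTMM, 0 to 4 in WTPP and 0 to 1 between WTMM and WTPP, with 0 without WT 116, 2 without WTMM 7 or WTMM 9, and 1 without WTPP 2. With voom on the recovered reads, chosen after the data were seen, the count in WTMM was 2 and in WTPP 3, and over all genes it called 1271 in WTMM and 1282 in WTPP, each set against WT, and 504 between the descendant groups. The replicate block, for mouse numbers 6 and 7 shared by WTMM and WTPP, gave 2, 2 and 0 calls. Deviations of the same-numbered libraries had r = -0.15 and -0.07, which cannot settle whether they share more than a number.

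The summed level of the members moved most when Cela1 and Cela2a were left out, to 724 normalized counts in WT, 1.96 in WTMM and 1.61 in WTPP, with ratios of 369 and 449. Leaving out each library gave 1552 to 2420 in WT, 1508 to 1646 in WTMM and 829 to 1085 in WTPP, with WT over WTMM from 0.992 to 1.55 and over WTPP from 1.66 to 2.59. The value of 0.992 without WT 116 reverses the direction. The cause was not tested. No gene of the acinar list reached a mean of at least 50, so that filter gave no value. The planned edgeR and DESeq2 fits were not run, and voom on the recovered reads stands in their place. With pseudocounts of 0.1 and 5, the median log2 difference of the 7 acinar genes was -6.06 and -2.09 in WTMM, and -6.70 and -2.16 in WTPP.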
